A study of Saccharomyces cerevisiae with 10 samples.

Results

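Genes of the actin cytoskeleton and of endocytic patches were followed in yeast through high salt and back. They were the 36 genes of a fixed list of actin, actin-binding and endocytic patch proteins. Each had 1 probe set on the Affymetrix Yeast Genome 2.0 array, among 5449 *S. cerevisiae* genes, and all 36 gave a signal above background on each of the 10 arrays. All cultures were of 1 haploid strain, given in the labels as BQS1350 and in the study's methods as a *MATα* BY4742 derivative with a myc-tagged *GCN5*, and grew in YPD at 30 °C. Sample B was taken 1 h after transfer into YPD with 1 M KCl and Sample C once the culture had grown further in that medium. Sample D was taken 1 h after return to YPD without KCl, and Sample E after 2 to 3 more generations. Sample A was the culture in log phase before any KCl. Each sample had 2 arrays, from replicate cultures grown as separate batches, so every group mean is over n = 2 and this number limits its precision.

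Actin in budding yeast forms patches and cables. Patches are short-lived sites of endocytosis, where the Arp2/3 complex builds a branched network that pushes the membrane inward. Cables are bundles made by formins and coated with tropomyosin, and they carry cargo into the bud. In this species a sudden rise in osmolarity is known to disperse both from the bud for a time, after which they return. The RNA came from whole cultures, so a changed share of cells at 1 stage of budding and a changed amount of RNA per cell cannot be told apart.

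The deposited values are log2 expression values, and a difference of 1 stands for 2-fold. The strain label was checked against mating type genes. The 4 *MATα* markers (STE3, MF(ALPHA)1, MF(ALPHA)2 and SAG1) lay between 10.35 and 14.06, and 7 *MATa* markers between 5.22 and 8.38. The background was 5.11 to 5.68, taken as the 95th percentile of named probe sets not matched to an *S. cerevisiae* gene. Replicates were least alike in Sample B. The root mean square difference between replicates was 1.04 over all genes in Sample B against 0.32 to 0.48 in the other samples, and over the 36 actin genes it was 1.03 against 0.28 to 0.41. Sample B replicate 2 was the higher array for 33 of the 36, and it also had the highest median of all genes. The actin genes on that array lay a median of 0.66 above their own means over the 10 arrays, where all genes lay 0.36 above. Replicate values are given for the genes and gene groups described most fully.

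**Figure D1:**
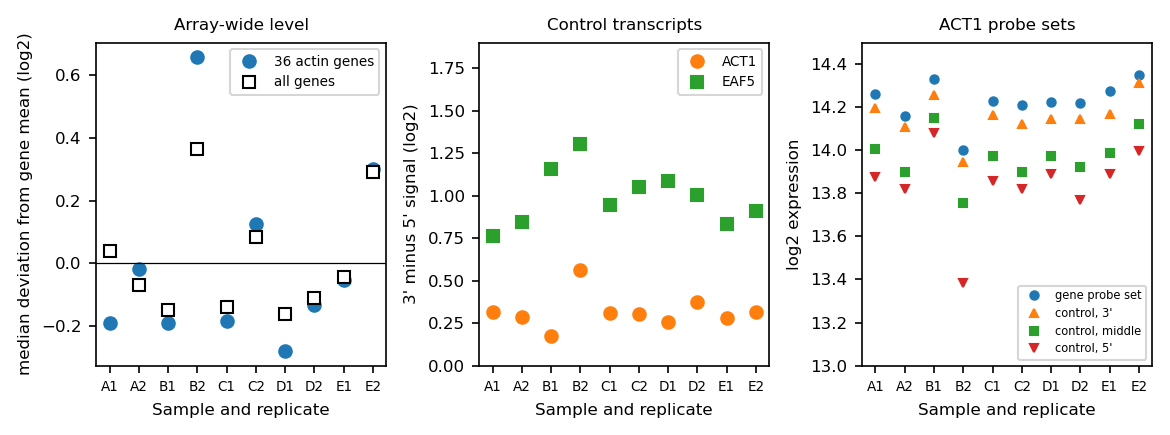
Levels and RNA state on each of the 10 arrays (letter, sample; number, replicate). Left, median deviation of the 36 actin genes and of all genes from each gene's mean over all arrays (log2), highest on B2 for both. Middle, 3′ minus 5′ signal of the control probe sets of *ACT1* and *EAF5* (log2). Right, log2 expression of *ACT1* by its gene probe set and by 3 control probe sets along the transcript, all 4 lowest on B2.

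The first comparison asked how these genes stood 1 h after cells met KCl (Sample B against Sample A). Most stood slightly higher, while *ACT1*, both formin genes, both tropomyosin genes and the kinase gene *PRK1* did not. The highest means were those of *MYO3*, *VRP1*, *LAS17* and *BBC1*, whose products activate the Arp2/3 complex or partner its activators. *BZZ1* and *MYO5*, of the same role, stood only 0.46 and 0.31 higher. In replicate 1 *ABP1* had the largest difference (1.06). Of the 36, 30 had a higher mean in Sample B, where 56.6% of all genes did. The median difference was 0.38 over the 36 and 0.08 over all genes. Replicate 1 alone gave 0.06 and replicate 2 alone 0.65, against −0.18 and 0.44 over all genes. Centring each array on its median left 0.24 over the 36 and −0.06 over all genes. In 12 of the 36 both Sample B arrays lay above both Sample A arrays, which 23.1% of all genes did, and in none did both lie below (15.9% of all genes). Once each array was centred on its median, 6 of the 36 lay above without overlap (21.5% of all genes) and 2 below (22.6%), so the count without overlap depended on the scaling. No actin gene passed limma's test at an adjusted p under 0.05, where 4.40% of all genes did, and 1 had an unadjusted p under 0.05 (20.0% of all genes). With the replicate number as a block, 1 passed (10.7% of all genes), and 10 had an unadjusted p under 0.05 (26.9%).

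The size of the median difference rested on Sample B replicate 2. The number of genes that passed changed with the Sample B array left out. In both replicates the median of the 36 lay above that of all genes, at 0.06 against −0.18 and at 0.65 against 0.44. Without Sample B replicate 1, 17 of the 36 passed, all higher, and the median was 0.71. In that fit 26.4% of all genes passed as higher. Without Sample B replicate 2 none of the 36 passed (9.67% of all genes) and the median was −0.01. The array also reads the 3′ and the 5′ end of the *EAF5* transcript as a sign of RNA state. The signal of the 3′ end less that of the 5′ end was 1.16 and 1.31 in Sample B, against 0.76 and 0.84 in Sample A. In Samples C to E it was 0.83 to 1.08. The part of RNA state in the differences of Sample B from Sample A was not tested.

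**Figure D2:**
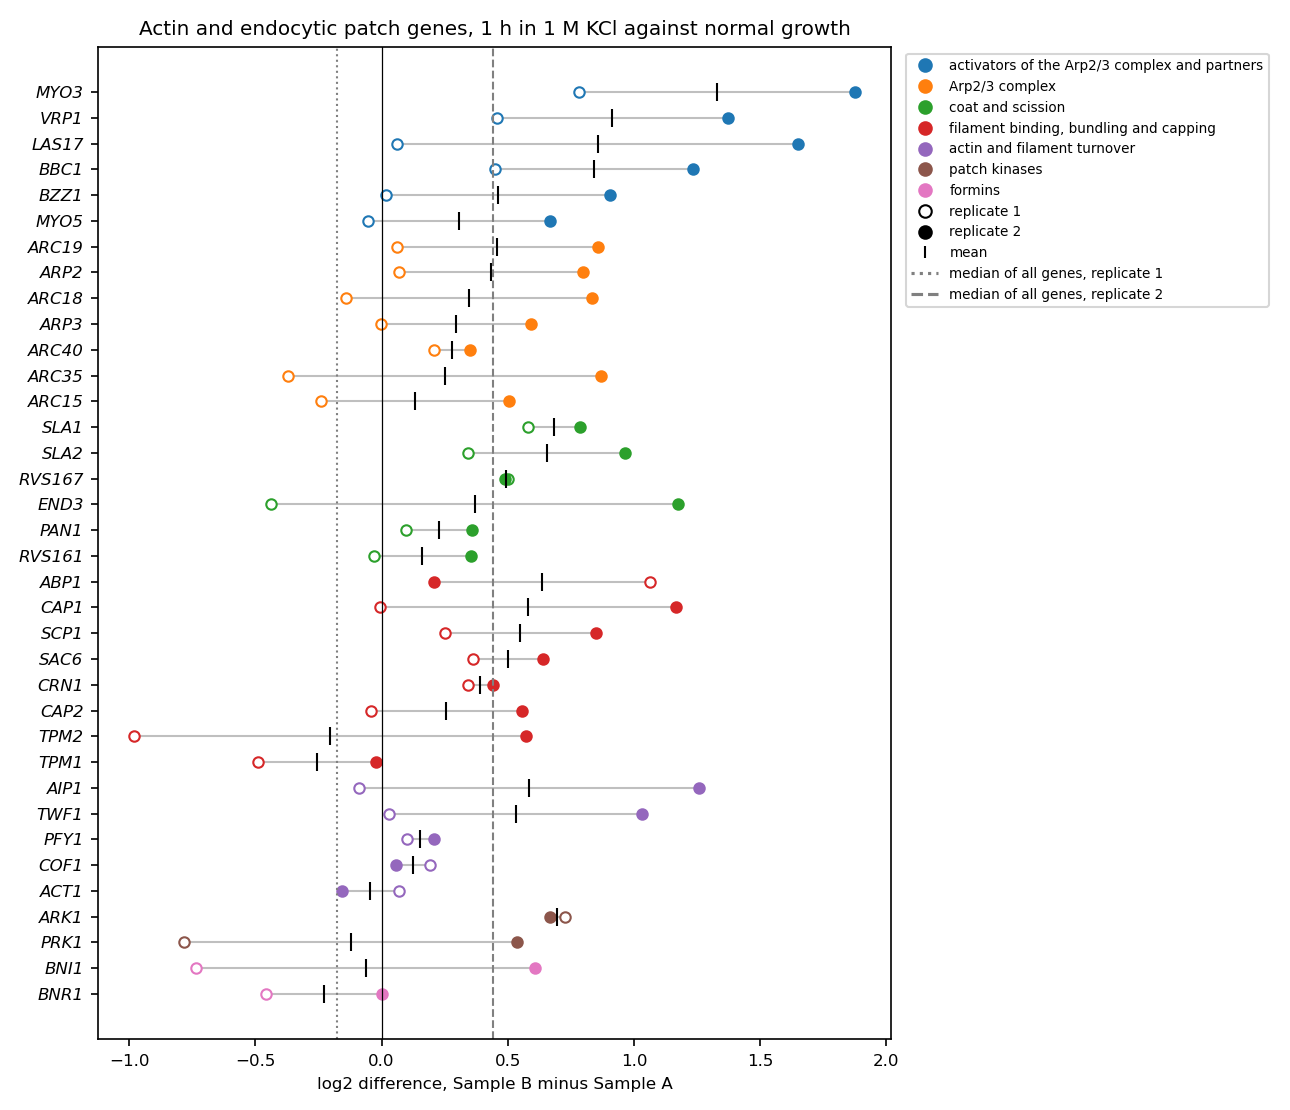
Difference of Sample B from Sample A (log2, x axis) for the 36 actin and endocytic patch genes (y axis), grouped by role. Open and filled points are the arrays of replicate 1 and replicate 2, the tick is their mean, and the dotted and dashed lines are the medians of all genes in replicate 1 (−0.18) and replicate 2 (0.44). *MYO3* has the highest mean, with 0.78 and 1.88 in the replicates.

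Among the activators of the Arp2/3 complex and their partners, all 6 genes had a higher mean in Sample B, with a median difference of 0.85, which was 0.26 in replicate 1 and 1.30 in replicate 2. *MYO3* (YKL129C) encodes a type I myosin, a motor at the base of the patch that also activates the Arp2/3 complex. It read 9.03 and 10.50 in Sample B, against 8.24 and 8.62 in Sample A. Both Sample B arrays lay above both of Sample A, a mean 2.51-fold higher (log2 difference 1.33 ± 0.51, SE). It did not pass without the block (adjusted p = 0.191) and rose with it (adjusted p = 0.0211), the only one of the 36 to do so. Its 95% confidence interval without the block was 0.18 to 2.48. Leaving out 1 array at a time kept *MYO3* higher, by 0.60 without Sample B replicate 2 and by 2.07 without Sample B replicate 1.

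The other type I myosin gene, *MYO5*, stood 0.31 higher, with −0.06 and 0.67 in the replicates, and its groups overlapped. *VRP1*, which encodes verprolin, the partner of Las17 and of the myosins, read 9.64 and 11.16 in Sample B against 9.18 and 9.79 in Sample A (difference 0.91 ± 0.49, adjusted p = 0.343, 0.0869 with the block), the higher Sample A array lying between the Sample B arrays. *LAS17*, the yeast WASP homologue, read 7.60 and 9.25 in Sample B against 7.54 and 7.60 in Sample A. Its groups did not overlap, but the difference was 0.06 in replicate 1 and 1.65 in replicate 2 (adjusted p = 0.382). *BBC1*, which binds the myosins and restrains Las17, read 9.75 and 11.12 in Sample B against 9.31 and 9.89 in Sample A. It stood 0.84 higher with overlapping groups (adjusted p = 0.378, 0.075 with the block). With the block and median centring together, *BBC1* passed as well as *MYO3* (adjusted p = 0.0465 and 0.00722), as did 17.1% of all genes. The sixth, *BZZ1*, an F-BAR protein that relieves the restraint on Las17, stood 0.46 higher with overlapping groups (0.02 and 0.90 in the replicates).

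The 7 subunits of the Arp2/3 complex, the nucleator itself, differed less. All 7 had a higher mean in Sample B, between 0.13 (*ARC15*, which changed sides after median centring, to −0.01) and 0.46 (*ARC19*), with a median of 0.29. In replicate 1 the median was 0.00 and in replicate 2 it was 0.80. *ARC19*, the farthest from Sample A, read 11.90 and 12.75 in Sample B against 11.84 and 11.89 in Sample A (adjusted p = 0.484). Only *ARC40* and *ARC19* had groups that did not overlap, and *ARC40* had the most even pair of differences, 0.21 and 0.35. The actin-related subunits *ARP2* and *ARP3* stood 0.43 and 0.29 higher, each with overlapping groups and with 0.07 and 0.00 in replicate 1. Without Sample B replicate 1, 4 of the 7 passed (*ARC18*, *ARC19*, *ARC35* and *ARP2*), by 0.88 to 0.97, in the fit where 26.4% of all genes passed as higher.

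Genes of the coat, which assembles before actin, and of scission, which frees the vesicle, had a median difference of 0.43, and all 6 had a higher mean. *SLA1*, an adaptor that holds Las17 in check, read 10.75 and 11.40 in Sample B against 10.17 and 10.61 in Sample A. Both arrays of Sample B were above both of Sample A, and the difference was alike in the replicates, 0.58 and 0.79 (mean 0.68 ± 0.30, adjusted p = 0.25, 0.0809 with the block). *SLA2*, which links the coat to actin, stood 0.65 higher with overlapping groups (0.34 and 0.97 in the replicates). *END3*, which works with Pan1 and Sla1, differed in sign between replicates, −0.44 and 1.18, and *PAN1*, the scaffold, stood 0.23 higher without overlap. The amphiphysins Rvs161 and Rvs167 form a pair that pinches the vesicle off. *RVS167* read 11.73 and 12.07 in Sample B against 11.23 and 11.59 in Sample A, with differences of 0.50 and 0.49 (adjusted p = 0.304). *RVS161* stood 0.16 higher, with 12.02 and 12.47 against 12.05 and 12.11.

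Of the 8 genes for proteins that bind, bundle or cap filaments, 6 had a higher mean in Sample B. *TPM1* and *TPM2*, the tropomyosins of cables, had a lower one, and none of the 8 passed. *ABP1*, which binds patch filaments and recruits the patch kinases, read 10.80 and 10.83 in Sample B against 9.74 and 10.62 in Sample A. It was the member of this set that differed most (0.64 ± 0.33, adjusted p = 0.33), and Sample A replicate 1 set most of it, since the difference was 1.06 in replicate 1 and 0.21 in replicate 2. Without Sample A replicate 1 it was 0.20. *SAC6*, the fimbrin that bundles filaments, read 12.21 and 12.65 in Sample B against 11.85 and 12.01 in Sample A (difference 0.50, adjusted p = 0.303). *CRN1* (coronin) stood 0.39 higher with 0.34 and 0.44 in the replicates, and both genes had groups without overlap. *SCP1*, a second bundling protein, stood 0.55 higher with overlap (0.25 and 0.85 in the replicates). The means of the capping protein genes *CAP1* and *CAP2*, 0.58 and 0.26 higher with overlap, came from replicate 2 alone (1.17 and 0.56), with −0.006 and −0.04 in replicate 1. *TPM1* stood at −0.26 (−0.49 and −0.02 in the replicates, adjusted p = 0.624). After median centring it stood at −0.40, with both Sample B arrays below both of Sample A. *TPM2* read 9.09 and 10.65 in Sample B, on either side of Sample A, where both arrays read 10.07 (−0.20, adjusted p = 0.854).

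Actin and the proteins that turn its filaments over had a median difference of 0.15, or 0.01 after median centring. *ACT1* (YFL039C), the only conventional actin gene of this yeast, read 14.33 and 14.00 in Sample B against 14.26 and 14.16 in Sample A. The difference of −0.05 (adjusted p = 0.937) had a 95% confidence interval of −0.54 to 0.45, and its sign turned after quantile normalization (0.03), without Sample A replicate 1 (0.01) and without Sample B replicate 2 (0.12). Over all 10 arrays *ACT1* lay within 14.00 to 14.35, close to the highest gene of each array (14.60 to 14.76), where array signals can be compressed. The array also carries control probe sets along the *ACT1* transcript. On Sample B replicate 2 the 5′ control probe set read 13.39, below the 13.77 to 14.08 of the other arrays, and the 3′ one read 13.95 against 14.11 to 14.31. Between these ends *ACT1* differed by 0.18 in Sample B replicate 1 and by 0.56 in replicate 2, against 0.32 and 0.29 in Sample A. The array with the lowest *ACT1* value was therefore also the one with the steepest signal along *ACT1*, and whether the RNA of that array set its value was not tested.

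The profilin gene *PFY1*, which feeds actin monomers to formins, and the cofilin gene *COF1*, which severs filaments, stood 0.15 and 0.12 higher, both without overlap, and *COF1* changed sides after median centring (−0.02). *AIP1*, the helper of cofilin, read 10.56 and 12.05 in Sample B against 10.65 and 10.79 in Sample A. Its mean difference of 0.58 (adjusted p = 0.521) came from Sample B replicate 2 alone and was −0.16 without it. *TWF1* (twinfilin, which binds monomers and filament ends) behaved alike, with 0.03 in replicate 1 and 1.03 in replicate 2.

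The formin genes had means on the other side of Sample A. *BNI1* stood at −0.06, with −0.74 and 0.61 in the replicates. *BNR1* read 7.36 and 7.78 in Sample B against 7.82 and 7.78 in Sample A (−0.23, adjusted p = 0.684). In the deposited values neither difference was larger than the spread between replicates. After median centring *BNI1* stood at −0.21 and *BNR1* at −0.37, and *BNR1* then lay below Sample A without overlap. Quantile normalization gave −0.16 and −0.67. The kinases Ark1 and Prk1 take the coat apart after internalization. *ARK1* read 8.39 and 9.13 in Sample B against 7.67 and 8.46 in Sample A, with differences of 0.73 and 0.67 and overlapping groups (adjusted p = 0.337, 0.0914 with the block), while *PRK1* stood at −0.12, with −0.78 and 0.54. The median of the kinase pair was 0.29, and −0.03 after quantile normalization.

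**Figure D3:**
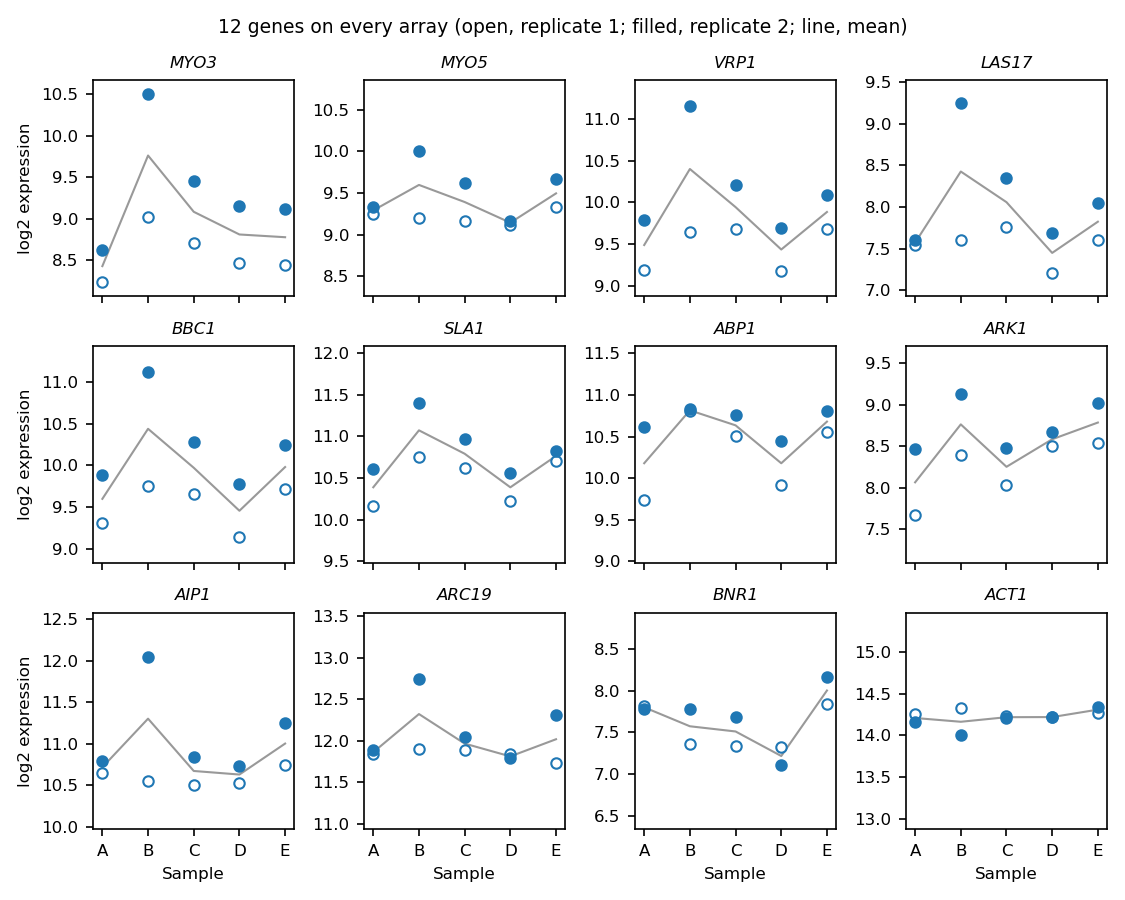
Log2 expression (y axis, 2.6 units in each panel) of 12 actin and endocytic patch genes in Samples A to E (x axis). Open points are replicate 1, filled points replicate 2 and the line joins the means; most genes are highest on Sample B replicate 2 (*MYO3* at 10.50, *LAS17* at 9.25), and *ACT1* stays between 14.00 and 14.35.

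Over the whole regime, 25 of the 36 genes had their highest mean in Sample B (39.5% of all genes) and 11 in Sample E (38.5%), and 26 had their lowest in Sample D (38.0%). After median centring 23 were highest in Sample B (30.1% of all genes), 10 were lowest in Sample D (14.3%) and 12 in Sample A (18.9%).

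Sample C showed these genes once cells grew in KCl. None passed against Sample A, with or without the block (0.0184% and 0.771% of all genes did), none had an unadjusted p under 0.05 by limma without the block (4.68% of all genes) and 1, *MYO3*, did with it (8.04%). The adjusted p was 1 for every actin gene. Their median difference was 0.10, against −0.01 over all genes, and 24 of 36 had a higher mean (48.7% of all genes). Replicate 1 gave a median of 0.02 and replicate 2 one of 0.15, against −0.17 and 0.16 over all genes. The median turned to −0.043 without Sample C replicate 2 (15 of 36 higher), and was 0.007 without Sample A replicate 1 (18 higher). The activators were again the farthest, with a median of 0.42. *MYO3* read 8.71 and 9.45 in Sample C against 8.24 and 8.62 in Sample A, without overlap (0.65 ± 0.51, 0.603 as adjusted p with the block). *LAS17* (0.49), *VRP1* (0.46), *ABP1* (0.46) and *SLA1* (0.40) followed. *BNR1* stood lowest, at −0.29, with 7.33 and 7.69 in Sample C against 7.82 and 7.78 in Sample A. Both of its Sample C arrays lay below both of Sample A. In all, 8 of the 36 were higher without overlap (18.1% of all genes) and 3 lower (17.8%).

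Sample C was also set against Sample B directly, to ask what changed between the first hour and later growth in KCl. The median difference was −0.28 over the actin genes and −0.10 over all genes. Replicate 1 gave −0.05 and replicate 2 −0.52, against −0.003 and −0.26 over all genes. In 5 of the 36 the mean was higher in Sample C (39.1% of all genes). None passed with or without the block (0.00% and 0.0184% of all genes did). None had an unadjusted p under 0.05 by limma without the block (10.3% of all genes) and 1, *MYO3*, did with it (15.7%). *MYO3* had the largest difference (−0.68 ± 0.51, adjusted p = 0.723), followed by *AIP1* (−0.63) and *TWF1* (−0.52). None of the 36 was higher without overlap (12.4% of all genes) and 3 were lower (19.1%). Without Sample B replicate 1, 11 of the 36 passed, all lower in Sample C, where 20.3% of all genes passed as lower, and the median was −0.70. Without Sample B replicate 2 none passed (0.587% of all genes) and the median was 0.14.

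One hour after the return to medium without KCl, Sample D stood close to Sample A. The median difference was −0.10 over the actin genes (−0.04 and −0.11 in the replicates) and −0.12 over all genes, and 8 of the 36 had a higher mean (29.1% of all genes). After median centring it was 0.01, with 18 higher. None of the 36 passed with or without the block (0.00% and 0.239% of all genes did). None had an unadjusted p under 0.05 by limma without the block (4.02% of all genes) and 1 did with it (6.02%). The formin gene *BNR1* was that gene. It read 7.32 and 7.11 in Sample D against 7.82 and 7.78 in Sample A (−0.59 ± 0.26, adjusted p = 1, 0.741 with the block). Both Sample D arrays lay below both of Sample A. In the deposited values they also lay below every other array, though Sample C replicate 1 was close at 7.33. After median centring Sample D replicate 1 lay above Sample C replicate 1 and Sample B replicate 2. After quantile normalization the difference of *BNR1* from Sample A was −0.63 in Sample D and −0.67 in Sample B. *ARK1* stood 0.52 above Sample A, with 8.50 and 8.67 in Sample D against 7.67 and 8.46, and *SAC6* 0.27 above, both without overlap. In all, 13 were lower without overlap (31.8% of all genes) and 3 higher (9.97%).

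Set against Sample C, from which the cells came, Sample D had a median difference of −0.18 over the actin genes (−0.05 and −0.31 in the replicates) and −0.09 over all genes. After median centring it was −0.07, against 0.02 over all genes. None passed with or without the block (0.00% and 0.0184% of all genes did), and none had an unadjusted p under 0.05 by limma in either fit (4.96% and 8.92% of all genes). A higher mean in Sample D was found for 6 of the 36 (35.6% of all genes). *LAS17* stood lowest, reading 7.21 and 7.69 in Sample D against 7.76 and 8.35 in Sample C (−0.61 ± 0.49, adjusted p = 1). *SCP1* (−0.56), *BBC1* (−0.52), *VRP1* (−0.51), *ABP1* (−0.46) and *RVS167* (−0.43) were the next lowest. *RVS167* had differences of −0.43 and −0.44 in the replicates, and its partner *RVS161* differed the other way, by 0.40 and 0.21. In all, 13 were lower without overlap (29.5% of all genes) and 2 higher (13.7%), *RVS161* and *ARK1*.

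The last comparison set Sample E against Sample A, to see whether levels came back after growth without KCl. All 36 had a higher mean in Sample E, but so did 78.3% of all genes, and after median centring 28 of 36 did (45.6% of all genes). The median difference was 0.23 (0.12 and 0.33 in the replicates), against 0.13 over all genes, and 0.08 after centring. None passed with or without the block (0.00% of all genes in each), none had an unadjusted p under 0.05 by limma without the block (0.863% of all genes) and 1 did with it (2.99%). *ARK1* was that gene. It read 8.54 and 9.02 in Sample E against 7.67 and 8.46 in Sample A, without overlap (0.72 ± 0.37, adjusted p = 1, 0.999 with the block). *ABP1* (0.50) and *VRP1* (0.40) followed, each with overlap. *MYO3* read 8.44 and 9.12 in Sample E and overlapped with Sample A. In all, 11 were higher without overlap (21.8% of all genes) and none lower (0.936%).

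Several of these genes come as related pairs, and the difference of their log2 signals on 1 array is free of a constant array-wide shift. It is not free of a shift that varies with signal. Quantile normalization moved *BNI1* minus *BNR1* on Sample B replicate 2 from 2.73 to 3.12. The size of such a difference depends on the probes and says nothing of which gene is more expressed, so only its change between arrays was read. The signal of *MYO3* minus that of *MYO5* was −0.17 and 0.50 in Sample B, against −1.01 and −0.71 in Sample A, without overlap, a mean change of 1.02. It was −0.44 and −0.17 in Sample C and −0.65 and −0.01 in Sample D. Both samples again lay above both Sample A arrays, with mean changes of 0.55 and 0.53, although Sample D was without KCl. In Sample E it was −0.89 and −0.55, overlapping with Sample A. Over all samples the 4 arrays in KCl, at −0.44 to 0.50, overlapped with the 6 without it, at −1.01 to −0.01. Between 2 samples of 2 arrays each, no exact permutation test of such a value can pass. None was run, either between samples or between the 4 arrays in KCl and the 6 without it.

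*RVS161* minus *RVS167* gave the cleanest split by medium. It was 0.29 and 0.39 in Sample B and 0.32 and 0.28 in Sample C, against 0.82 and 0.53 in Sample A, 1.15 and 0.93 in Sample D, and 0.56 and 0.75 in Sample E. The 4 arrays in KCl, at 0.28 to 0.39, thus lay below the 6 arrays without KCl, at 0.53 to 1.15. After quantile normalization the split held with a narrower gap, at 0.29 to 0.43 in KCl against 0.50 to 1.11 without. *RVS161* and *RVS167* had been set as a pair for all samples, but the split by KCl was seen in the values and is a description without a test. The KCl ranges of the other 4 pairs overlapped with those without KCl. *ARK1* minus *PRK1* was 1.29 and 0.79 in Sample B against −0.22 and 0.66 in Sample A, and Sample A replicate 1 stood apart from the 9 other arrays. *TPM1* minus *TPM2* was 2.41 and 1.36 in Sample B against 1.92 and 1.96 in Sample A, on either side of it. *BNI1* minus *BNR1* likewise was 1.96 and 2.73 in Sample B against 2.23 and 2.12 in Sample A.

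**Figure D4:**
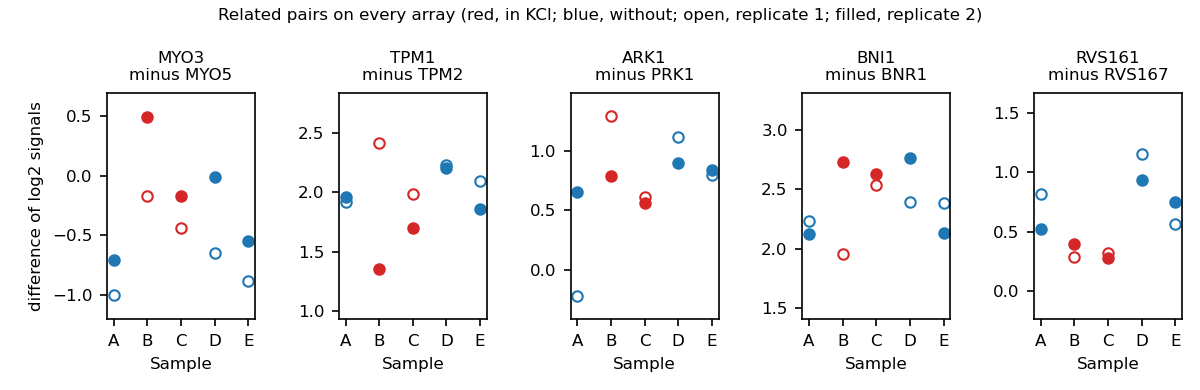
Difference of log2 signals within 5 pairs of related genes (y axis, 1.9 units in each panel) on each array of Samples A to E (x axis). Red points are arrays in KCl and blue points arrays without, open for replicate 1 and filled for replicate 2. In the panel of *RVS161* minus *RVS167* the red points (0.28 to 0.39) lie below all blue points (0.53 to 1.15), and in the other 4 panels the colours overlap.

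Other genes of the same process were counted for context. Of 25 early endocytic and other patch genes, which include clathrin, its adaptors and the epsins, none passed in Sample B against Sample A without the block and 2 rose with it, where 10.7% of all genes passed. These were *CHC1*, the clathrin heavy chain (0.77, adjusted p = 0.216, 0.0457 with the block), and *YAP1801*, a clathrin adaptor (0.86, adjusted p = 0.293, 0.0469 with the block). *CHC1* read 11.36 and 11.92 in Sample B against 10.70 and 11.04 in Sample A, without overlap, and *YAP1801* 9.35 and 10.39 against 8.70 and 9.31. The list had a median difference of 0.46, with 22 of 25 higher (56.6% of all genes). Replicate 1 alone gave −0.003 and replicate 2 alone 0.92, against −0.18 and 0.44 over all genes. Of 15 polarity, cable and contractile ring genes, none passed in either fit, 6 had a higher mean and the median was −0.03. In the other 5 comparisons no gene of either list passed, with or without the block.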

How the data were processed

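The authors extracted RNA by hot phenol, hybridized it to Affymetrix Yeast Genome 2.0 arrays and made the deposited log2 expression values by RMA in Affymetrix Expression Console; the version, and whether all arrays were normalized together, are not given in the sources used here. Probe sets were named through the platform annotation and the RefSeq gene table of assembly R64, matched by gene identifier (5498 probe sets, 5449 genes). For the 47 genes with several, the probe set with the highest mean was used. The 1746 named probe sets of other identifiers served as background. No sequences or coordinates were used.

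Groups were compared with limma 3.58.1 (R 4.3.3) over all 10 arrays, with 1 coefficient per group, eBayes and Benjamini-Hochberg adjustment over 5449 genes, two-sided. In 6 comparisons each later sample was set against Sample A, C against B, and D against C. Samples A, B and C each enter several comparisons. All groups share 1 spread per gene, so SEs and p-values with Sample B can be too small and those without it too large. Dropping both Sample B arrays raised the share of all genes called from 0.0184% to 1.74% in C against A. In D against A it went from 0.00% to 0.642%, and in D against C from 0.00% to 0.771%. In E against A it stayed at 0.00%. In data simulated for Sample B against Sample A (5449 genes), 15 of 100 genes changed by log2 1 were recovered. Of those changed by log2 2, 67 of 100 were, with 2 false calls in all. The simulated noise was independent between arrays and had 1 spread per gene in every group. It lacked the wider spread of the real Sample B, so these counts may not hold for the real arrays. The labels give replicates as separate culture batches. In the study's methods, 2 cultures grown on different occasions were sampled in turn from A to E, and same-numbered arrays were taken as 1 culture. Deviations from group means correlated between same-numbered arrays in all 10 pairs of groups (r from 0.22 to 0.52). The replicate number was used as a block in an alternative fit. The main fit ignores this pairing, and so do its SEs, intervals and p-values. Other alternatives were the 2 groups alone, median centring, quantile normalization, averaged probe sets, a filter on dim genes and leaving out arrays. Dropping both Sample B arrays was added after seeing the data.

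Genes named with the values of each array are *ACT1*, those past the threshold in either fit and the gene of each role that differed most in Sample B; further genes were named after their values were seen. The 36 genes and the lists were chosen with earlier results of these data known.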

Additional observations from a re-analysis of the deposited data

Results flagged for a closer look

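The control probe sets for RNA quality were used in no comparison, and some of them stood above Sample A in Sample B. For *EAF5* the 3′ minus 5′ signal was 1.16 and 1.31 on the Sample B arrays, against 0.76 and 0.84 on those of Sample A. On the arrays of Samples C to E it was 0.83 to 1.08. For *ACT1* it was 0.56 on Sample B replicate 2, against 0.29 and 0.32 in Sample A, while Sample B replicate 1, at 0.18, lay below them.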

How the results depend on the processing

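The count of actin genes called in Sample B against Sample A was 0, 1 with the replicate block, 2 with the replicate block and median centring, and 0 to 17 when 1 array was left out. The share of all genes called was 4.40%, 10.7% with the block, 17.1% with the block and median centring, and 0.00% to 33.9% when 1 array was left out. The block changed no other count of these genes. In Sample C against Sample B the count was 0, and 0 to 11 when 1 array was left out (24.5% of all genes where it was 11). In the other comparisons it was 0 under every alternative run. The median difference of these genes in Sample D against Sample A, −0.10, became 0.0098 with median centring, with or without the block, and 0.0001 with quantile normalization. In Sample E against Sample A it was 0.23, and 0.0799 with median centring, with or without the block. When 1 array was left out, the median lay between −0.01 and 0.71 for Sample B against Sample A, −0.043 and 0.27 for C against A, −0.18 and −0.012 for D against A, 0.037 and 0.43 for E against A, −0.70 and 0.14 for C against B, and −0.33 and −0.02 for D against C. *ACT1* in Sample B turned to 0.034 with quantile normalization, and lay between −0.21 and 0.12 when 1 array was left out (above 0 without Sample A replicate 1 or Sample B replicate 2). *AIP1* lay between −0.16 (without Sample B replicate 2) and 1.33. *MYO3* passed with the block, with the block and median centring, and without Sample B replicate 1. Causes were not tested. All 36 signals lay above background on all arrays, and the number of arrays limits the precision.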
